A study of Mus musculus with 12 samples.

Results

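The BCL2 family described here was 10 of the 54232 genes of the deposited count table, those whose Ensembl identifiers map to Bcl2, Bcl2l1, Bcl2l2, Mcl1, Bax, Bak1, Bid, Bcl2l11, Bbc3 and Pmaip1. The list was made by gene name and no value entered it, but earlier results of these data were known by then. RNA was sequenced in 12 libraries of B16F10, a pigmented mouse melanoma cell line of C57BL/6 origin, in 4 groups of 3. WT cells were untreated cultures. Relapsed are the lines ITF1, Rel and ITM, which were sorted from tumors that grew back after immunotherapy in mice and were then grown in culture before RNA was taken. Lyso cells are B16F10 that had been given granules released by T cells, for 48 hours by the labels, while the methods of the study state a shorter time. Tumor libraries (1, 3 and 4) hold B16F10 sorted from tumors that relapsed after immunotherapy in mice, with RNA taken straight after the sort. These mice were injected at 6 weeks of age by the labels, while the methods of the study state an older age for its mice. The labels give an age of 6 weeks for all 12 libraries, those of cultured cells included. No group carries a transgene or an engineered allele by the labels. Each Relapsed library is a different line, and neither the labels nor the methods say whether the 3 libraries of the other groups came from separate cultures or animals, so p-values measure the spread between these samples, which may be technical.

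BCL2 proteins decide whether the outer mitochondrial membrane is breached during apoptosis. The effectors BAX and BAK, once active, form pores that release cytochrome c, and the guards BCL-2, BCL-XL (Bcl2l1), BCL-W (Bcl2l2) and MCL-1 hold them in check. BH3-only proteins, among them BID, BIM (Bcl2l11), PUMA (Bbc3) and NOXA (Pmaip1), sense stress, bind the guards and in some cases activate the effectors. Cytotoxic T cells reach this step through granzyme B, which can cleave BID. Many of these proteins are controlled after translation, which RNA levels do not show.

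Of the 10 genes, 9 passed the filter on low counts and were tested, and Pmaip1 did not. Levels are given as CPM, the counts of a gene scaled to library size, and genes were called at an adjusted p under 0.05 in edgeR's quasi-likelihood test over 14924 genes. Counts on genes ran from 1667398 to 16402629 per library, with WT 1, WT 2 and all Tumor libraries at 5049496 or less and every other library at 10895611 or more. The 10 melanocyte markers were above 3 counts in every library, so the labelled cell type had its markers throughout. Their summed level was 19784 to 28413 CPM in WT, 23126 to 37386 in Relapsed, 29826 to 30608 in Lyso and 20510 to 22620 in Tumor. WT 1 stood further from its group than the other WT libraries did, with a chi-square over genes of 13.8 and 22.09 per degree of freedom against WT 2 and WT 3, which differed by 5.15 from each other.

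Per length, the effectors and Mcl1 stood well above the rest of the family. In WT, Bax was at 86.95 ± 4.712 CPM per kilobase of exon, Bak1 at 67.53 ± 18.83 and Mcl1 at 64.15 ± 10.11 (SD, n = 3 libraries for each). Bcl2l1 followed at 16.58 ± 4.436 CPM per kilobase, and then Bid at 8.882, Bbc3 at 7.835, Bcl2l2 at 6.176 and Bcl2 at 6.07, 4 neighbours whose SDs overlapped. Bcl2l11 was at 0.9771 ± 0.2796 and Pmaip1 had no count. The ranks at the top were not the same in every group. Relapsed kept Bax first at 81.18 CPM per kilobase, in Lyso Bak1 led at 120.7 ± 20.96 ahead of Bax at 84.16 ± 3.786, and in Tumor Mcl1 led at 88.43 ± 11.94 ahead of Bak1 at 56.63 ± 2.896 and Bax at 50.3 ± 5.827. Bak1 and Bax in Tumor lay within their SDs of each other. The lengths include exon stretches shared with other genes, where reads may be uncounted. These were 25.5% of Bak1 (opposite strand) and 12.2% of Bax (same strand), and 0 for Mcl1 and Bcl2l1. What this does to the order of close members was not tested.

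The 250 bases before the start of Bax, Mcl1, Bak1 and Bcl2l11 are printed for these members because the differences below turn on them. They come from RefSeq on GRCm38.p6 and lie at chr7:45466899-45467148 on the minus strand for Bax, chr3:95658471-95658720 on the plus strand for Mcl1, chr17:27028628-27028877 on the minus strand for Bak1 and chr2:128125788-128126037 on the plus strand for the first of the Bcl2l11 starts. Each reads from 5′ to 3′ towards the start, and capitals mark a match to one of the motifs named after them.
Bax: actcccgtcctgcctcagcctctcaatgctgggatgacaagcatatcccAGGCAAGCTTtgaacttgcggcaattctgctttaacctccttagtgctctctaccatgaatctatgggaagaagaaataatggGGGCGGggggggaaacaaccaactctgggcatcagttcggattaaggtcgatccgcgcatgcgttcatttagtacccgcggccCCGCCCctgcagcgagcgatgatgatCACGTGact
Mcl1: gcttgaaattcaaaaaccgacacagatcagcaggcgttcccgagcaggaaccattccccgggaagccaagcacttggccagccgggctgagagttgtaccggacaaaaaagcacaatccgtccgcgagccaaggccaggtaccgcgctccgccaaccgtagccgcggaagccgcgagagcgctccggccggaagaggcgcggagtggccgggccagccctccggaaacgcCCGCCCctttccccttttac
Bak1: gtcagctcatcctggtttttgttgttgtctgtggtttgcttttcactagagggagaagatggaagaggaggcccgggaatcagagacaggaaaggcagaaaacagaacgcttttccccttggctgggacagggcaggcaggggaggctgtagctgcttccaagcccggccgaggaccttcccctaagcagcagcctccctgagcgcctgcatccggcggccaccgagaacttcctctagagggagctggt
Bcl2l11: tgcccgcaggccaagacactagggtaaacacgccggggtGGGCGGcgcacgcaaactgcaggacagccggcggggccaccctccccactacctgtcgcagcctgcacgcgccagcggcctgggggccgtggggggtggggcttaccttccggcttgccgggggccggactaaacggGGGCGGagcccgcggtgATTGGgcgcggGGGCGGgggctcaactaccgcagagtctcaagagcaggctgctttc
In Bax the capitals are, in order, a p53 half-site, a GC box, a second GC box on the other strand and an E-box. Mcl1 holds a GC box, Bak1 no match, and Bcl2l11 GC boxes and a CCAAT box.

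Motifs were searched on both strands in windows of 300 bases, 250 before and 50 after each RefSeq start, 14 windows for 9 members and 32851 in all. No window of Pmaip1 was used. A p53 half-site was in the 1 Bax window, at bases -201 to -192 from the start, and in 8.36% of all windows. An E-box (CACGTG) was in the windows of Bax and of 1 Bbc3 start, against 7.15% of all. The GC box (GGGCGG) was in 10 of 14 member windows and in 35.7% of all, and the CCAAT box (CCAAT) in 3 of 14 and in 37.4%. By gene, 7 of 9 members had a GC box, as Bbc3 and Bcl2l11 have several windows each. The median share of G and C was 52.7% over all windows. In the 250 bases before the member starts it ran from 47.6% to 81.6%, and a difference in GC box matches at like GC was not tested. The letters searched for STAT factors (TTCNNNGAA) were in 8.3% of all windows, AP-1 (TGACTCA) in 5.2%, CRE (TGACGTCA) in 1.79% and the TATA box (TATAAA) in 13.6%. These 4 were in no member window. No matches of different motifs overlapped in the member windows, but the windows of the Bbc3 starts overlap each other in part. A match is a description of the letters and not of binding.

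**Figure D1:**
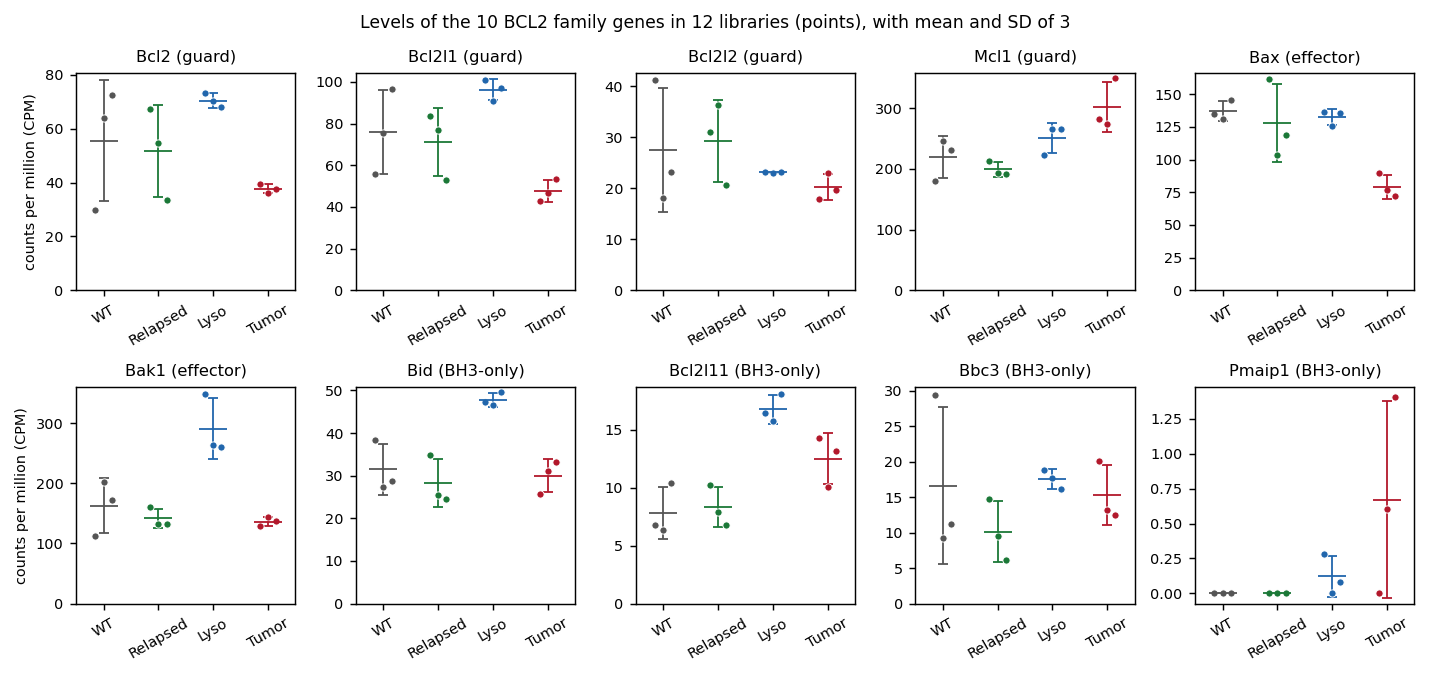
Level of each of the 10 genes in CPM on the y axis (each panel with its own scale), by group on the x axis, with a point for each library and the mean and SD of 3 as bars. Bax and Bcl2l1 in Tumor lie below every WT library, Bak1, Bid and Bcl2l11 in Lyso lie above every WT library, and the Relapsed points overlap those of WT in all panels.

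Among the guards, Mcl1 and Bcl2l1 went opposite ways in the tumor-sorted cells against WT. Mcl1 encodes a short-lived guard that is renewed by constant synthesis and lies at chr3:95658788-95663176 on GRCm38. It was at 180.3, 246.3 and 231.1 CPM in WT, 213.5 in ITF1, 193.6 in Rel and 191.2 in ITM, 222.8, 265 and 266.3 CPM in Lyso, and 282.9, 274.7 and 349.2 CPM in Tumor. All 3 Tumor libraries were above all other libraries. The log2 fold change of Tumor against WT was 0.46 (SE 0.14, adjusted p = 0.0413, edgeR) and against Relapsed 0.60 (SE 0.14, adjusted p = 0.0103, edgeR). Against Lyso it was 0.27 (SE 0.14, adjusted p = 0.197, edgeR), which was not called. The call against WT was lost without WT 1, WT 3 or any single Tumor library, with library size scaling alone, without the filter on low counts and in a fit of only the compared groups, with log2 fold changes of 0.34 to 0.55 over the left-out libraries and a highest adjusted p of 0.177 without Tumor 4 (edgeR). Against Relapsed it was lost without Tumor 4, at an adjusted p of 0.0606 (edgeR).

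Bcl2l1, the gene of BCL-XL, lies at chr2:152780668-152831728. It was at 55.97, 75.5 and 96.64 CPM in WT, 83.75, 76.82 and 52.9 CPM in ITF1, Rel and ITM, 100.8, 90.87 and 97.04 CPM in Lyso, and 42.83, 46.62 and 53.57 CPM in Tumor. The Tumor libraries were the lowest apart from ITM, which was slightly below Tumor 4, and the Lyso libraries were close together at the top of the WT range. Tumor was lower than WT by a log2 fold change of -0.70 (SE 0.20, adjusted p = 0.0303, edgeR) and lower than Lyso by -1.01 (SE 0.20, adjusted p = 0.00264, edgeR). The difference from Relapsed, -0.57 (SE 0.20, adjusted p = 0.0618, edgeR), was not called. It passed with library size scaling alone, without the filter on low counts and without ITM. Against WT the call was lost in the fit of only the compared groups (adjusted p = 0.0501, edgeR) and without WT 2, WT 3, Tumor 1 or Tumor 3, with log2 fold changes of -0.87 to -0.47 and an adjusted p of 0.169 against WT 1 and WT 2 alone (edgeR). Against Lyso it was kept without any single library.

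Bcl2, the founding guard of the family, lies at chr1:106538178-106714274. It was at 29.96, 64.11 and 72.67 CPM in WT, 67.18, 54.76 and 33.39 CPM in the Relapsed lines, 73.24, 70.13 and 68.01 CPM in Lyso, and 39.59, 36.17 and 37.59 CPM in Tumor. WT 1 was the lowest of all 12 libraries and lay below Tumor, so WT and Tumor overlapped. The log2 fold change of Tumor was -0.60 against WT (SE 0.28, adjusted p = 0.163, edgeR), and without WT 1 it was -0.87 with an adjusted p of 0.0131 (edgeR). Tumor was lower than Lyso by -0.90 (SE 0.28, adjusted p = 0.0312, edgeR), a call that was lost without any one of the 6 libraries, at adjusted p-values up to 0.104 (edgeR).

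Bcl2l2, the gene of BCL-W, lies at chr14:54883377-54888234 and shares 13.3% of its exon bases with Gm20521 on the same strand. Reads there cannot be told apart and may be missing from the count of Bcl2l2. Bcl2l2 was at 41.27, 18.14 and 23.26 CPM in WT, 30.98, 36.31 and 20.58 CPM in the Relapsed lines, 23.16, 23.07 and 23.13 CPM in Lyso, and 17.85, 22.91 and 19.74 CPM in Tumor. WT 1 was here the highest library, and every pair of groups overlapped apart from Lyso and Tumor. No comparison of Bcl2l2 passed the threshold, and the interval of Lyso against WT ran from -0.78 to 0.37 on the log2 scale. Without Relapsed 3, the line ITM, Tumor was lower than Relapsed by -0.73, past the threshold.

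Of the effectors, Bax was lower in Tumor and Bak1 higher in Lyso. Bax lies at chr7:45461697-45466898 and shares 12.2% of its exon bases with Gm45808 on the same strand. It was at 135.1, 130.8 and 145.2 CPM in WT, 161.4, 103.5 and 118.9 CPM in ITF1, Rel and ITM, 136.2, 125.7 and 135.9 CPM in Lyso, and 89.56, 76.35 and 71.9 CPM in Tumor. Every Tumor library was below every other library. Tumor was lower than WT by a log2 fold change of -0.79 (SE 0.16, adjusted p = 0.00348, edgeR), lower than Relapsed by -0.69 (SE 0.15, adjusted p = 0.00671, edgeR) and lower than Lyso by -0.74 (SE 0.15, adjusted p = 0.00353, edgeR). These calls were kept without any single library, with a highest adjusted p of 0.039 (edgeR). Between Lyso and WT the log2 fold change was -0.05, with an interval of -0.38 to 0.28.

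Bak1, the gene of BAK, lies at chr17:27019810-27029009, and 25.5% of its exon bases lie opposite exons of Ggnbp1. Where the counting did not use strand, reads there may be missing from the count of Bak1. Bak1 was at 113.1, 202 and 172.6 CPM in WT, 160.2, 131.7 and 132.6 CPM in the Relapsed lines, 348.8, 263.4 and 259.5 CPM in Lyso, and 129.1, 143.1 and 136.7 CPM in Tumor. Every Lyso library was above all libraries of the other groups, while Tumor lay within the WT range through WT 1, the lowest library, and below WT 2 and WT 3. Without WT 1, Tumor was lower than WT by -0.46 (adjusted p = 0.0432, edgeR), and with it by -0.26 (SE 0.19, adjusted p = 0.381, edgeR). Lyso was higher than WT by a log2 fold change of 0.83 (SE 0.19, adjusted p = 0.0247, edgeR), higher than Relapsed by 1.04 (SE 0.19, adjusted p = 0.00487, edgeR), and Tumor was lower than Lyso by -1.09 (SE 0.19, adjusted p = 0.00115, edgeR). The call against WT was lost without WT 3, Lyso 1 or Lyso 2, with log2 fold changes of 0.64 to 1.01 over the left-out libraries and a highest adjusted p of 0.131 without Lyso 1 (edgeR). It was also lost in the fit of only the compared groups (adjusted p = 0.0626, edgeR) and against WT 3 alone (adjusted p = 0.0944, edgeR). Those against Relapsed and of Tumor against Lyso were kept without any single library.

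**Figure D2:**
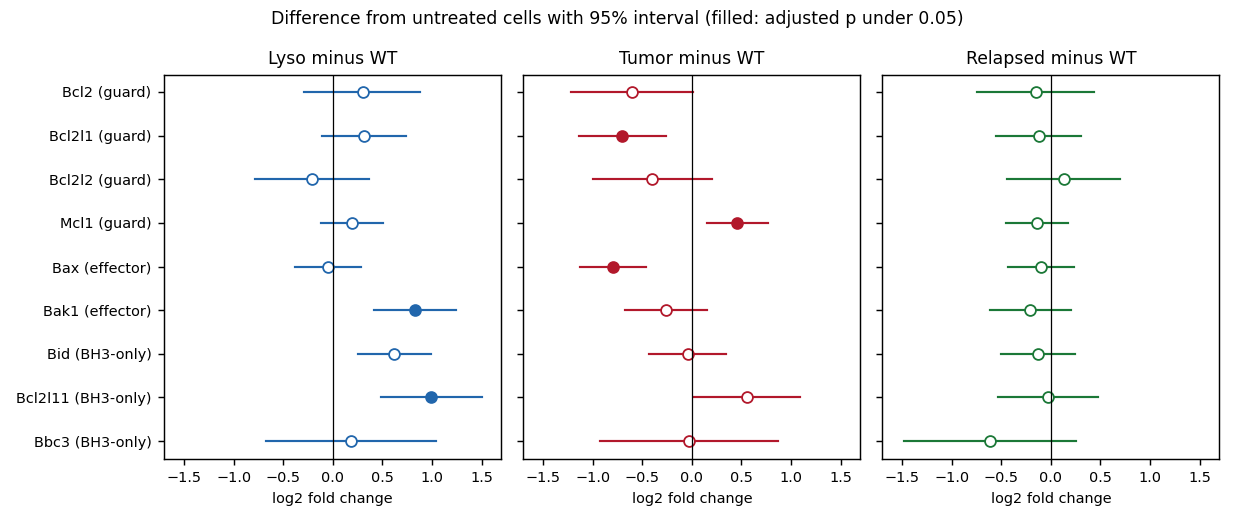
Log2 fold change on the x axis of each tested gene (rows) in Lyso, Tumor and Relapsed against WT, with lines for the 95% interval and filled points for an adjusted p under 0.05. Filled points are Bak1 and Bcl2l11 for Lyso, and Bcl2l1, Mcl1 and Bax for Tumor, and there are none for Relapsed.

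The BH3-only genes that stood out were Bcl2l11 and Bid, both in Lyso. Bcl2l11 encodes BIM, which binds every guard and can activate the effectors, and lies at chr2:128126038-128162547. It was at 6.784, 6.327 and 10.42 CPM in WT, 10.2, 7.89 and 6.822 CPM in the Relapsed lines, 16.47, 15.72 and 18.11 CPM in Lyso, and 14.28, 10.05 and 13.16 CPM in Tumor. The Lyso libraries were the highest of all, and Tumor lay between Lyso and most of WT, with Tumor 3 below WT 3. Lyso was higher than WT by a log2 fold change of 0.99 (SE 0.23, adjusted p = 0.0301, edgeR) and higher than Relapsed by 1.02 (SE 0.21, adjusted p = 0.0125, edgeR). The call against WT held without WT 3 and was lost without any other of the 6 libraries and against WT 3 alone, where the log2 fold change was 0.68 and the adjusted p 0.266 (edgeR). Its counts were 12 and 15 in WT 1 and WT 2. Against Relapsed the call was lost without Lyso 1 or Lyso 3, at adjusted p-values up to 0.0636 (edgeR). For Tumor against WT the log2 fold change was 0.56 (SE 0.25, adjusted p = 0.139, edgeR).

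Bid, whose protein is the BH3-only substrate of granzyme B and caspase-8, lies at chr6:120891930-120916853, with 17.7% of its exon bases opposite exons of Bcl2l13. It was at 38.44, 27.42 and 28.74 CPM in WT, 34.89, 25.54 and 24.59 CPM in the Relapsed lines, 47.26, 46.5 and 49.57 CPM in Lyso, and 25.63, 31.14 and 33.13 CPM in Tumor. All Lyso libraries were above all others, and the other groups overlapped. Lyso was higher than Relapsed by a log2 fold change of 0.76 (SE 0.16, adjusted p = 0.0134, edgeR), and Tumor was lower than Lyso by -0.67 (SE 0.17, adjusted p = 0.0116, edgeR). The first of these was lost without Lyso 1 or Lyso 3, at adjusted p-values up to 0.0618 (edgeR), and the second was kept without any single library. Against WT the log2 fold change of Lyso was 0.62 (SE 0.17, adjusted p = 0.0573, edgeR), just above the threshold, and without WT 1 it was 0.76 with an adjusted p of 0.0188 (edgeR). Bid also passed without the filter on low counts, in a fit of only the compared groups and with DESeq2, and its adjusted p ran from 0.0206 to 0.128 over the settings other than left-out libraries (edgeR or DESeq2).

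Bbc3 and Pmaip1 are both known targets of p53. Bbc3 passed the threshold in no comparison, and Pmaip1 was too low to pass the filter. Bbc3 lies at chr7:16308393-16318205 and was at 29.4, 9.279 and 11.25 CPM in WT, 14.8, 9.494 and 6.163 CPM in the Relapsed lines, 18.83, 17.67 and 16.09 CPM in Lyso, and 20.12, 13.26 and 12.45 CPM in Tumor. WT 1 was the highest library, while WT 2 and WT 3 lay below every Lyso and Tumor library. The log2 fold change of Lyso against WT was 0.18 (SE 0.40, adjusted p = 0.868, edgeR), with an interval of -0.67 to 1.04, the widest of the tested members in that comparison. Pmaip1 had 0 counts in the 6 WT and Relapsed libraries, 3, 0 and 1 counts in Lyso and 0, 3 and 6 counts in Tumor. A count of 0 over the group allows up to 0.147 CPM in WT and 0.0678 CPM in Relapsed, and the group values were 0.115 CPM in Lyso and 0.722 CPM in Tumor. Without the filter on low counts, Pmaip1 passed the threshold in Tumor against WT (adjusted p = 0.0173, edgeR) and against Relapsed (adjusted p = 0.00119, edgeR), on 9 counts of which Tumor 4 held 6 and Tumor 1 held 0. DESeq2 gave an adjusted p of 0.0848 against Relapsed and none against WT.

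Counted over the family, 2 of 9 tested members were higher in Lyso than in WT (Bak1 and Bcl2l11) and 0 lower, where 3.5% of all genes were called higher and 1.21% lower. In Tumor against WT 1 was higher and 2 lower, and 12.1% and 6.94% of all genes. Against Relapsed, Tumor had 1 higher and 1 lower (11.8% and 7.74% of all genes), and Lyso had 3 higher and 0 lower (4.87% and 2.81%). Tumor against Lyso had 0 higher and 5 lower (14.2% and 10.5%). Where every library of one group lay above every library of another, the exact permutation test of 3 against 3 gives its smallest two-sided p, 0.1. The comparisons share libraries, and each is given by its own values.

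The Relapsed lines could not be set apart from WT for any member. No member was called (edgeR), 0 of 9 had an unadjusted p under 0.05, and DESeq2 called 0. Over all genes 0.0134% were called higher and 0.0268% lower in that comparison. The largest log2 fold change was that of Bbc3, -0.61 (SE 0.40, adjusted p = 0.607, edgeR), and the others ran from -0.21 for Bak1 to 0.13 for Bcl2l2. The intervals leave room for differences. For Mcl1, the narrowest, the interval was -0.45 to 0.17, and for Bcl2 it was -0.74 to 0.44. The 3 lines also differed among themselves, ITM having the lowest Bcl2, Bcl2l1 and Bcl2l2 and ITF1 the highest Bax, Bak1 and Bid of the lines.

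Ratios within a library do not depend on its scaling and are given as a description. They use the same exon lengths, with the same limit on stretches shared with other genes. The guards summed to 0.601 ± 0.0191 of the effectors in WT (SD, n = 3, CPM per kilobase), 0.623 ± 0.0903 in Relapsed and 0.531 ± 0.0838 in Lyso, and to 1.01 ± 0.161 in Tumor, where the 3 libraries were at 0.909, 0.923 and 1.19. All Tumor libraries were above all others, and Rel came next at 0.727. Mcl1 made up 82.2% ± 1.42 of the summed guards in Tumor and 68.9% ± 3.07, 68.1% ± 5.01 and 68.4% ± 2.97 in WT, Relapsed and Lyso. The ratio of Mcl1 to Bcl2l1 was 8.86, 7.91 and 8.74 in Tumor and 2.97 to 4.85 in the other 9 libraries. Bak1 to Bax was 1.68, 1.37 and 1.25 in Lyso against 0.548, 1.01 and 0.778 in WT, and 0.944, 1.23 and 1.25 in Tumor, which overlapped WT and came close to the lowest Lyso library.

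**Figure D3:**
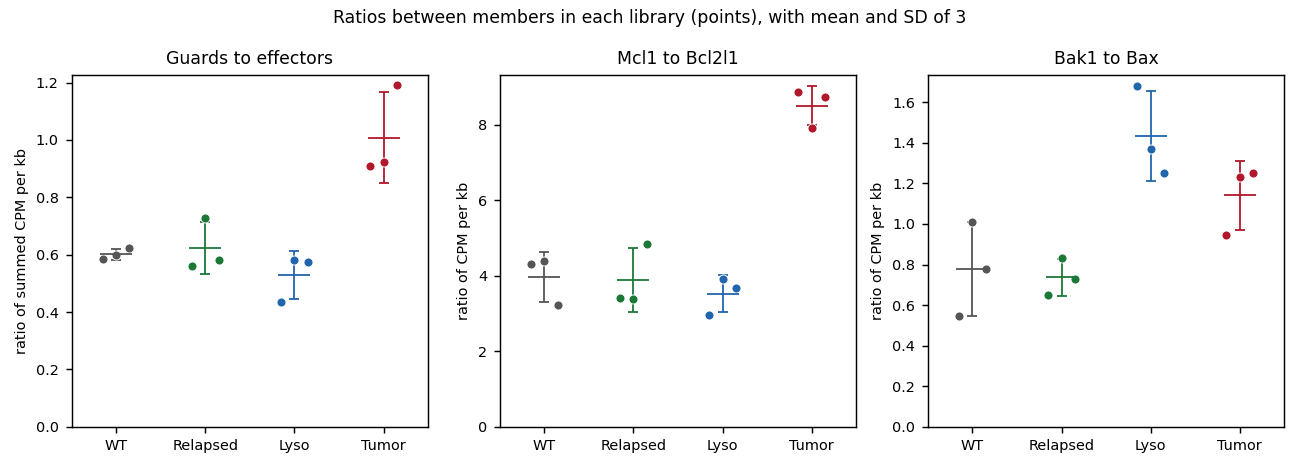
Ratios of CPM per kilobase on the y axis, by group on the x axis, with a point for each library and the mean and SD of 3 as bars. Guards to effectors and Mcl1 to Bcl2l1 are higher in the 3 Tumor libraries than in all others, and Bak1 to Bax is higher in the Lyso libraries than in WT, with Tumor in between.

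Markers of other cells moved with the Tumor and Lyso groups. Summed fibroblast markers were 7693 to 10690 CPM in Tumor and 30 to 39.4 CPM in WT, with all 10 called higher, and 6 of 7 tested myeloid and 5 of 6 tested endothelial markers were also called higher. Myeloid markers summed to 47.1 to 72.4 CPM in Tumor and 15.3 to 30.6 CPM in WT, where Adgre1, Itgam, Tyrobp and Aif1 were at 0. Endothelial markers summed to 277 to 324 CPM in Tumor and 291 to 427 CPM in WT, where Kdr and Cldn5 were at 0. Most of this sum was Eng, at 343 ± 72.9 CPM in WT and 254 ± 25 CPM in Tumor (SD, n = 3). In Lyso, T cell markers summed to 10 to 12 CPM against 0 to 0.0589 CPM in WT, with Cd8a, Cd8b1 and Gzmb called higher and 9 of the 10 at 0 in WT. Fibroblast markers in Lyso summed to 15.1 to 18 CPM, below WT. Myeloid markers there summed to 35.7 to 39.4 CPM, above WT. Of 10 fibroblast markers, 1 was called higher and 2 lower in Lyso against WT. Of 7 tested myeloid markers, 1 was called higher and 0 lower. Over all genes, 3.5% were called higher and 1.21% lower. Thy1 was higher by a log2 fold change of 7.67 (adjusted p = 0.00205, edgeR), with 0 counts in WT and 91 in Lyso. Ptprc was higher by 5.53 (adjusted p = 0.0136, edgeR), and Postn and Col1a1 were lower. Col3a1 had 0 counts in Lyso. Which cells the Thy1 and Ptprc reads came from was not tested. The part of RNA from other cells in the differences of Bax, Bcl2l1, Mcl1, Bak1, Bid and Bcl2l11 was not tested, and in such bulk samples fewer cells of a type and less RNA per cell cannot be told apart.

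Of 15 further relatives of the family, 7 could be tested. Bmf, a BH3-only gene whose protein binds motor complexes, was higher in Lyso than in WT, at 17.1 ± 0.557 against 4.64 ± 3.02 CPM (SD, n = 3) and a log2 fold change of 1.60 (SE 0.39, adjusted p = 0.0339, edgeR). This call was lost without any single library other than WT 3. Where 12.1% of all genes were called higher and 6.94% lower in Tumor against WT, 3 of the 7 relatives were higher and 0 lower. They were Bok, a relative of the effectors, with a log2 fold change of 2.35 (adjusted p = 0.00318, edgeR), and the mitophagy receptors Bnip3 and Bnip3l with 3.57 (adjusted p = 0.0118, edgeR) and 1.40 (adjusted p = 0.00342, edgeR). Bnip3 also spread widely among the Relapsed lines, at 93 ± 123 CPM. Tumor against Relapsed gave 1 higher and 0 lower, Lyso against Relapsed 1 and 1, and Tumor against Lyso 3 and 1. The shares of all genes in these comparisons, given above for the family, hold for the lists below too.

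Downstream of the mitochondria, 17 genes of the apoptosome, caspases and inhibitors of apoptosis were all tested. In Tumor against WT 2 were higher, Casp6 by a log2 fold change of 0.87 (adjusted p = 0.00168, edgeR) and the inhibitor Birc3 by 1.87 (adjusted p = 0.00179, edgeR), and 1 was lower, Birc5, the gene of survivin, by -0.68 (adjusted p = 0.0436, edgeR). The counts against WT were close to the 12.1% of all genes called higher and 6.94% called lower. Tumor against Relapsed gave 2 higher and 0 lower, where 11.8% and 7.74% of all genes were called. Of the ubiquitin ligases and deubiquitinases that act on family members, 4 of 5 were tested and 0 were called in any comparison by edgeR or DESeq2, with 0 or 1 at an unadjusted p under 0.05 in each. Without the filter on low counts edgeR called 1 higher in Tumor against Relapsed and against Lyso, and in the fit of only the compared groups 1 lower in Tumor against Lyso.

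Of 14 transcription factors known to act on the members, 5 were higher in Tumor than in WT and 0 lower, and 1 was higher in Lyso and 0 lower. Over all genes, 12.1% were called higher and 6.94% lower in Tumor, and 3.5% and 1.21% in Lyso. Stat3 was higher in both, with a log2 fold change of 2.40 in Tumor (SE 0.18, adjusted p = 1.72e-06, edgeR) and 3.35 in Lyso (SE 0.18, adjusted p = 2.61e-06, edgeR). Jun was at 703 ± 79.7 CPM in Tumor and 63.8 ± 4.14 in WT (SD, n = 3), with a log2 fold change of 3.46 (SE 0.29, adjusted p = 4.57e-06, edgeR). Myc had 1.93 (adjusted p = 7.74e-05, edgeR), Mitf, which drives melanocyte genes, 0.99 (adjusted p = 0.0113, edgeR), and Foxo3, which acts on Bcl2l11, 0.84 (adjusted p = 0.0286, edgeR). Tumor against Relapsed gave 4 higher and 0 lower, Lyso against Relapsed 1 and 0, and Tumor against Lyso 5 and 1.

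The 13 other p53 targets split by direction in Tumor, with 5 lower and 2 higher than WT. Over all genes, 6.94% were called lower and 12.1% higher. The median log2 fold change of the 13 was -0.76, against 0.00 over all genes. Lower were Ccng1 (cyclin G1) by -1.54 (adjusted p = 0.000284, edgeR), Phlda3 by -1.43 (adjusted p = 0.000477, edgeR), the nuclease gene Aen by -1.02 (adjusted p = 0.000514, edgeR), Zmat3 by -0.76 (adjusted p = 0.00844, edgeR) and 1 more. Higher were Btg2, an early response gene that slows growth, by 2.32 (adjusted p = 0.00042, edgeR) and the death receptor gene Fas by 2.92 (adjusted p = 0.0326, edgeR), which had 5 counts in WT and 22 in Tumor. Tumor against Relapsed also gave 5 lower and 2 higher, Lyso against Relapsed 1 and 1, and Tumor against Lyso 6 lower and 1 higher. Without WT 1, 4 were called lower and 3 higher, and without any other single library 4 to 5 lower and 1 higher. In Lyso against WT 0 were called by edgeR or DESeq2, and 0 had an unadjusted p under 0.05. In Relapsed against WT edgeR called 0 of this list, where 3 had an unadjusted p under 0.05 and DESeq2 called 1, and 0 of the other lists of the pathway, where an unadjusted p under 0.05 was found for 2 relatives, 1 apoptosome gene, 3 factors and 0 ubiquitin genes and DESeq2 called 0. Trp53 itself, named after its values were seen, had a level of 154 ± 3.15 CPM in WT and 147 ± 6.32 CPM in Tumor (SD, n = 3, adjusted p = 0.74, edgeR). Bax was also lower in Tumor than in WT, and Bbc3 was at -0.03 with an interval of -0.93 to 0.87. A part of p53 in these differences was not tested.

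**Figure D4:**
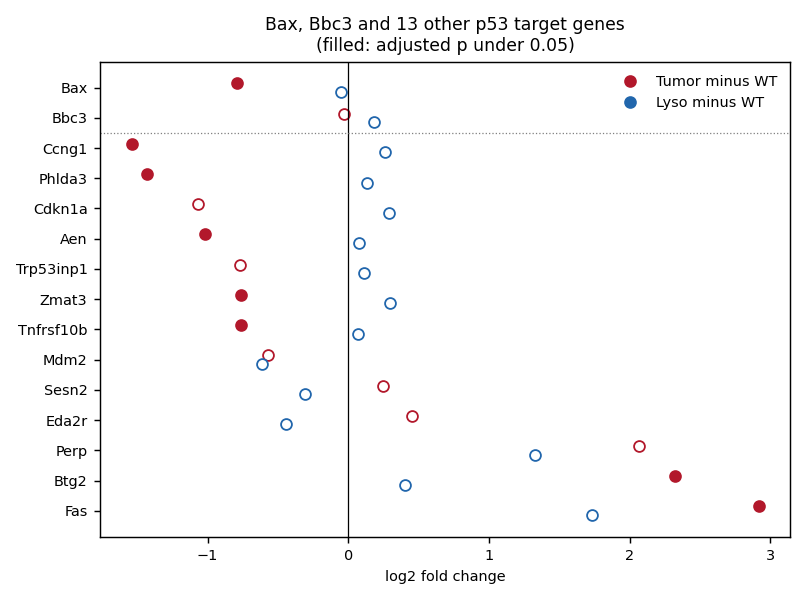
Log2 fold change against WT on the x axis of Bax, Bbc3 and the 13 other p53 targets (rows), in red for Tumor and blue for Lyso, filled where the adjusted p was under 0.05. Filled points are red only, with Bax and 5 others to the left of 0 and Btg2 and Fas to the right.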

How the data were processed

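RNA from 12 libraries was sequenced, and the authors trimmed adaptors with fastp 0.19.6, aligned reads to GRCm38 with STAR 2.7.1a and deposited raw counts per gene, without normalization. The strand setting of the counting and the annotation release are not given in the sources used here. The 4 rows that are not genes were left out, and the share of reads counted on genes was 36.17% to 39.36% per library. These rows hold unmapped, multimapping and ambiguous reads and reads on no feature, the last at 43.53% to 44.77%. Ambiguous reads are in the count of no gene, so reads where genes overlap may be missing from the members. Groups came from the labels. Of the 54232 genes, 54165 identifiers matched GENCODE M21, which gave symbols, coordinates on GRCm38 and exon lengths. The members and lists were chosen with earlier results of these data known.

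Counts were scaled by TMM, filtered by edgeR's filterByExpr and tested with edgeR 4.0.16 (R 4.3.3, glmQLFit and glmQLFTest) in 1 fit of all 12 libraries, with Benjamini-Hochberg adjustment over the 14924 genes tested. SE is the log2 fold change divided by the square root of F, and 95% intervals use the t distribution with the degrees of freedom of the test. The script was tested on simulated data. DESeq2 1.42.0, other scalings and filters, fits of only the compared groups, WT libraries of like depth and each library left out were alternatives. Intervals and floors (3 counts) cover the spread or counting error only. All 10 members were named, and of each list at most 6 genes, those called with the smallest p against WT. A gene that falls under this rule is not reported here. Lyso 2 and Lyso 3, the closest replicates, differed by more than sampling noise (chi-square per degree of freedom 1.59), and both were kept.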

Additional observations from a re-analysis of the deposited data

How the results depend on the processing

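Of 702 log2 fold changes of members recomputed under alternatives, 618 kept their direction and side of the threshold, 42 lost the call, 15 gained it and 27 changed sign. No called member changed sign.

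The number of members called in Lyso against WT was 2, and 0 to 2 with 1 library left out, 0 with WT 3 as the only WT library and 0 where an absolute log2 fold change over 1 was also required. In Tumor against WT it was 3, and 1 to 4 with 1 library left out, 1 with only the compared groups, 1 against WT 1 and WT 2 alone and 0 with the fold minimum. In Tumor against Relapsed it was 2, and 5 without the filter on low counts, 1 to 4 with 1 library left out and 0 with the fold minimum. In Lyso against Relapsed it was 3, and 1 to 3 with 1 library left out. In Tumor against Lyso it was 5, and 2 with the fold minimum. Leaving out a library also removes degrees of freedom, and the cause of the other changes was not tested.

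Same-numbered libraries did not deviate together over genes (correlations from -0.01 to 0.083). Counting noise can hide a shared deviation at the 1667398 and 2350129 counts of WT 1 and WT 2. Whether the numbers pair the samples is therefore not known. With the replicate number as a block, 0 members were called in Lyso against WT, 0 in Tumor against WT and 6 in Tumor against Lyso, and no paired fit was made with the Relapsed lines, which carry no number. Tumor shares only the numbers 1 and 3 with WT and Lyso, so libraries without a partner add nothing to its blocked comparisons.

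Members that were not called changed sign as follows. In Lyso against WT 3 alone, Bcl2 was at -0.06 and Bcl2l1 at -0.02. With 1 library left out, Lyso against WT ranged from -0.40 to 0.13 for Bcl2l2, -0.08 to 0.01 for Bax and -0.09 to 0.74 for Bbc3. Tumor against WT ranged from -0.12 to 0.09 for Bid and -0.31 to 0.51 for Bbc3, which was at 0.02 where each library had to hold 10 counts. Relapsed against WT ranged from -0.43 to 0.10 for Bcl2, -0.30 to 0.10 for Bcl2l1, -0.06 to 0.45 for Bcl2l2, -0.30 to 0.03 for Bax and -0.21 to 0.34 for Bcl2l11, which was at 0.01 with only the compared groups. Tumor against Relapsed ranged from -0.11 to 0.04 for Bak1 and -0.01 to 0.26 for Bid. Lyso against Relapsed ranged from -0.08 to 0.25 for Bax, which was at -0.01 with library size alone.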
